A study of Sus scrofa with 32 samples.

Results

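Gene expression in the loin muscle (longissimus dorsi) was compared between Dapulian and Landrace pigs, using the 16 libraries labelled with one of these breeds out of 32 in the series. Landrace (L) is a lean commercial breed, and Dapulian (DPL) is an indigenous Chinese breed. Each breed had 8 libraries of wild type genotype, made from total RNA of pigs aged 6 months, and the labels say that housing and feed were alike. The remaining libraries came from 2 crosses that carry Dapulian blood (LDPL and, with Duroc, DLDPL). They entered the filter on low counts, the scaling and the estimate of spread, but not the contrast. No sex, slaughter day, litter or batch is labelled, and the L libraries carry a number series of their own, so breed cannot be told apart from how the L animals and samples were handled. The comparison asks how muscle transcription differs between an indigenous and a commercial breed. Here it is described for transcription factors, signalling, transporters, membrane proteins and secreted proteins.

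A muscle fibre senses hormones, growth factors, nerve input and load through receptors and channels in its membrane. Kinases, cyclic AMP and calcium carry these signals to transcription factors, which set fibre type and growth. Carriers move sugar, lactate, amino acids, lipids and ions across the membrane. Fibres and the fibroblasts, vessels and satellite cells between them also secrete matrix, proteases and messengers that act on their neighbours.

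In DPL, the transcription factors NR4A3, NFIL3, MYC and KLF4, which cells are known to induce quickly after a stimulus, stood above L, with log2 changes of 7.32 ± 0.62, 4.29 ± 0.52, 3.36 ± 0.37 and 2.58 ± 0.26 (DPL minus L, with the standard error). MAMSTR, a coactivator of MEF2, and SMYD1, a methyltransferase of muscle, stood below L (-1.92 ± 0.17 and -1.29 ± 0.18). The thiamine carrier SLC19A2 had the largest rise among carriers (3.29 ± 0.26), and the tissue factor F3, which starts clotting, was higher as well (2.60 ± 0.32). Of all genes tested 18.9% were called lower and 19.1% higher. Against that, collagens were lower in 14 of 21 genes and higher in 1, and semaphorins and plexins were lower in 11 of 22 and higher in 3. The growth inhibitor myostatin (MSTN) had -2.003 ± 0.30.

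The L libraries held 26590633 ± 1158018 reads (mean ± SD, n = 8) and the DPL libraries 26184718 ± 3068135, and each library had reads of 14241 to 15664 genes. Of 12821 genes with enough reads for edgeR's quasi-likelihood test, 4873 (38.0%) were called at a Benjamini-Hochberg adjusted p under 0.05, with 2455 (19.1%) higher and 2418 (18.9%) lower in DPL. By limma on log2(RPKM + 1) the split was 1277 higher and 3412 lower, and the median change of all genes was -0.12, against -0.02 by edgeR. RPKM values are scaled to all reads, mitochondrial ones included. In 966 genes (7.53%) the 8 DPL libraries did not overlap the 8 of L, with 4.12% above and 3.42% below them. These shares are the background for every count in the text. Mitochondrially encoded genes took 22.2, 32.9 and 37.3% of the reads in DPL (lowest, median and highest library) and 17.3, 20.0 and 24.8% in L (two-sided exact permutation p = 0.00109). The breeds lay apart on principal component 1 (35.7% of the variance among the 16 libraries), and L replicate 2 and DPL replicate 16 lay far from their groups on component 2 (11.8%).

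In the text, 3 levels in a row are the lowest, the median and the highest of 8 libraries in CPM (read counts scaled by TMM to 1e+06 reads per library). A change is DPL minus L on the log2 scale (n = 8 per breed), and its adjusted p is from the edgeR test over all genes. Its standard error is the size of the change divided by the square root of the test's F statistic. That statistic draws its spread from all 32 libraries, the crosses included. The tissue label was checked first. All 16 fibre markers with a symbol were measured and none was at 0 in any library, and their summed level was 95113, 204950 and 232965 CPM in L and 106779, 138943 and 179560 CPM in DPL. Of them 4 were higher and 8 lower, with a median change of -0.38 (2 higher by limma on log2(RPKM + 1)). L replicate 2 had the lowest sum of the 16 libraries. In bulk tissue, fewer cells of a type and less RNA per cell cannot be told apart. Fibroblast markers, which are collagens and small proteoglycans, summed to 1391, 1965 and 2449 CPM in L and 386, 819 and 1545 CPM in DPL, with 4 of 6 lower and none at 0 in any library. Satellite cell markers, genes of muscle stem cells, summed to 95.1, 119 and 181 CPM in L and 64.1, 67.5 and 76.8 CPM in DPL, so these groups did not overlap, with 5 of 8 lower and 0 higher (1 higher without DPL replicate 19 or 30). Endothelial markers summed to 125, 172 and 227 CPM in L and 94.5, 129.6 and 210.0 CPM in DPL, with 1 of 8 higher and 3 lower. The higher call was lost without L replicate 2, 8 or 10 or DPL replicate 16 or 21. It was also lost by limma and with only the 16 L and DPL libraries in the fit. Macrophage markers, with 0 of 7 called, summed to 21.4, 39.0 and 162 CPM in L and 39.8, 51.2 and 111 CPM in DPL. Of them 3 were called higher without L replicate 2. Lymphocyte markers were scarce, at sums of 4.34, 8.24 and 31.9 and 2.80, 5.42 and 14.1 CPM, with 3 of 6 lower (1 without L replicate 2). Of the remaining marker lists, 2 of 8 smooth muscle and pericyte markers were higher (1 without L replicate 4, 7 or 8 or DPL replicate 11, 21 or 23) and 3 lower. Of the last lists, 1 of 6 adipocyte markers was higher (2 without L replicate 1 or 8 or DPL replicate 7 or 11) and 1 lower, 1 of 3 nerve markers was higher, and 0 of 3 blood markers was called.

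Across the 5 classes, 2120 symbols were found in the files and 1530 genes had enough reads to be tested. Of these 260 were higher and 378 lower in DPL, with a median change of -0.12. Transcription factors were called higher in 60 and lower in 49 of 243 genes, and transporters in 61 and 40 of 255. Signalling genes were called higher in 81 and lower in 128 of 552. Membrane proteins had 35 higher and 104 lower of 304, which is 11.5% and 34.2%, and secreted proteins had 30 higher and 66 lower of 210, which is 14.3% and 31.4%. In those classes the lower calls thus stood above the background share of 18.9% and the higher calls below that of 19.1%. The medians were 0.06 for transcription factors, -0.14 for signalling, 0.04 for transporters, -0.34 for membrane proteins and -0.26 for secreted proteins.

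**Figure D1:**
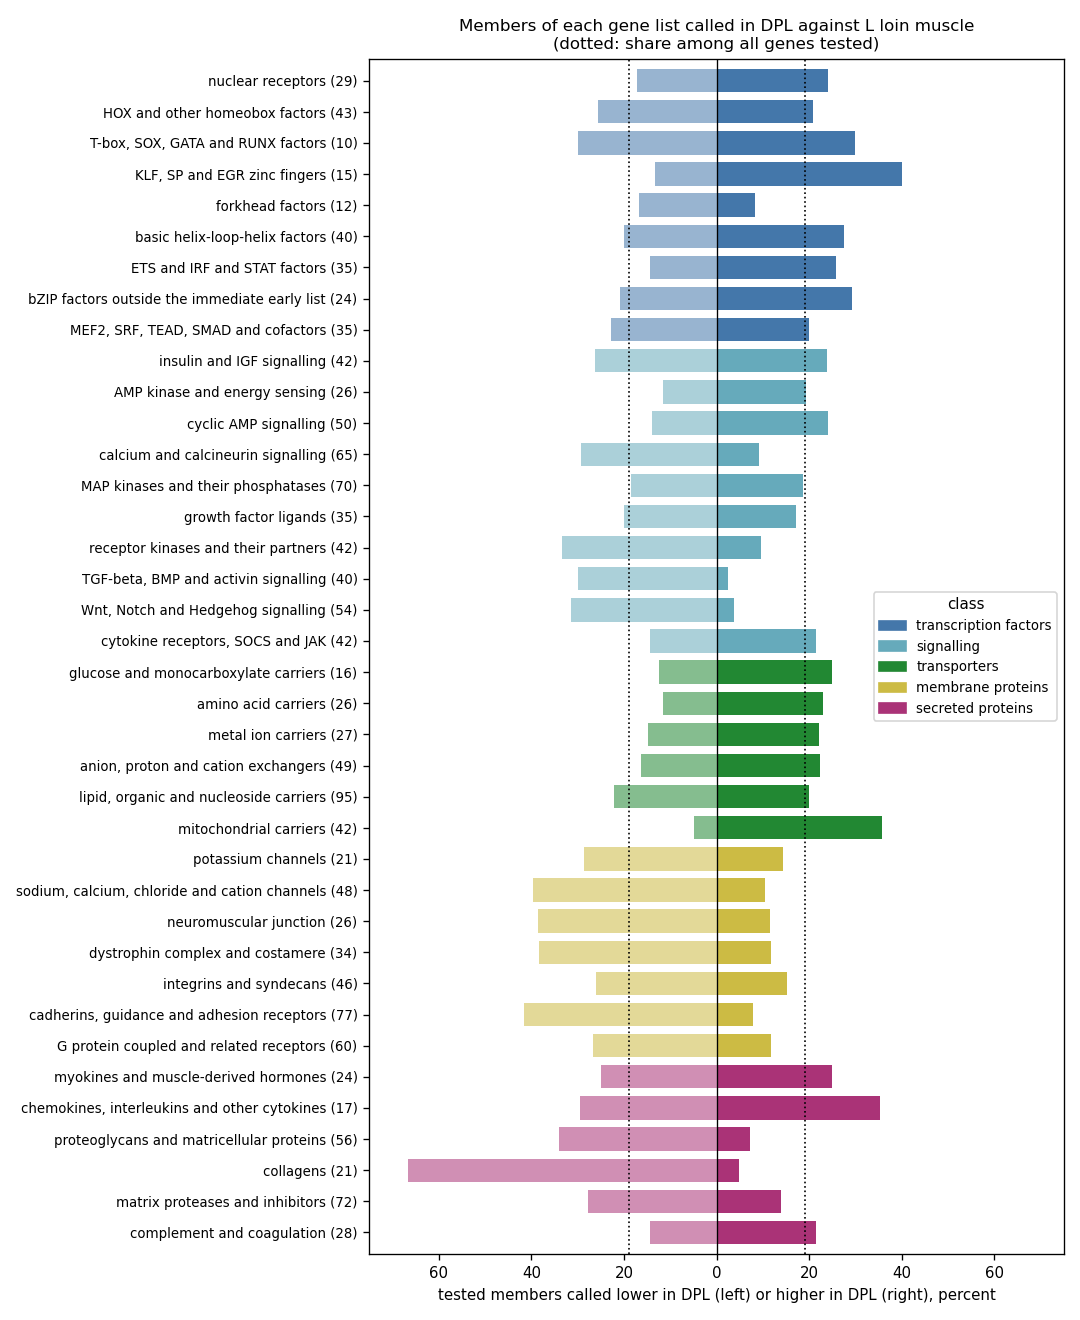
Share of tested members of 38 gene lists that were called higher (bars to the right) or lower (bars to the left) in DPL than in L, in percent, with the number tested in brackets. The dotted lines mark the shares among all genes tested, 19.1% higher and 18.9% lower, and collagens, adhesion receptors and channels have the longest bars to the left among lists of 20 or more genes.

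Nuclear receptors are transcription factors that bind hormones or lipids or act through their own level. Of 29 tested, 7 were higher and 5 lower in DPL. NR4A2, an orphan receptor induced by cyclic AMP and calcium, was at 2.78, 6.12 and 27.0 CPM in L and 26.2, 71.4 and 176 CPM in DPL. The ranges overlapped by 1 library of each breed, and the change was 3.26 ± 0.43 (adjusted p = 5.13e-07). Its relative NR4A3 (0.232, 1.09 and 1.58 CPM in L and 37.5, 145 and 306 CPM in DPL) did not overlap. ESRRA, a receptor that drives mitochondrial genes together with PPARGC1A, was at 38.3, 64.2 and 74.9 CPM in L and 70.4, 139 and 208 CPM in DPL, a change of 1.23 ± 0.17 (adjusted p = 7.98e-07). RARG, a receptor for retinoic acid, was lower, with a change of -0.81 ± 0.15, and all 8 DPL libraries lay below L. The oestrogen receptor ESR1 and the clock repressor NR1D2 were lower too (-1.30 ± 0.34 and -0.66 ± 0.17). NR1H2, a sterol receptor and the most abundant member that was not called, had -0.11 ± 0.11.

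Homeobox factors give cells their place along the body axis, and muscle keeps a HOX code into adult life. Of 43 tested, 9 were higher and 11 lower. HOXA7 was at 3.75, 6.80 and 8.17 CPM in L and 15.9, 23.8 and 26.3 CPM in DPL. HOXC10 was at 0.981, 5.59 and 7.89 CPM in L and 11.3, 17.8 and 23.6 CPM in DPL. Neither gene overlapped between the breeds, and the changes were 1.80 ± 0.17 (adjusted p = 1.86e-09) and 1.77 ± 0.23 (adjusted p = 4.42e-07). HOXD1 was higher as well (1.39 ± 0.27, adjusted p = 0.000104), whereas HOXB6 (-1.56 ± 0.36, adjusted p = 0.000929) and HOXC6 (-0.44 ± 0.14, adjusted p = 0.0136) were lower. The other 9 of 14 HOX genes tested were not called, so the cluster genes did not move in 1 direction. TGIF1, a repressor of TGF-beta targets, was higher in all 8 DPL libraries than in any of L (1.73 ± 0.30). PBX3, a partner of HOX proteins, fell, with a change of -1.18 ± 0.23, and SIX4, a regulator of muscle genes, had -0.79 ± 0.14. ADNP was lower by a small amount in all 8 DPL libraries (-0.48 ± 0.08).

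Among 10 T-box, SOX, GATA and RUNX factors, 3 were higher and 3 lower. TBX18, a factor of pericytes and connective tissue, was at 4.44, 6.99 and 9.32 CPM in L and 1.43, 2.02 and 3.18 CPM in DPL. All DPL libraries were below all L libraries, with a change of -1.75 ± 0.20 (adjusted p = 3.59e-08). TBX2 (-1.23 ± 0.27) and SOX11 (-1.68 ± 0.33) were lower, whereas TBX3, the close relative of TBX2, was higher (1.01 ± 0.25), as were GATA2 (1.28 ± 0.26) and SOX9 (1.15 ± 0.41, adjusted p = 0.0239). SOX13 was not called (-0.32 ± 0.19). The call of SOX9 was lost without DPL replicate 16 (adjusted p = 0.0507) and by limma on log2(RPKM + 1) (adjusted p = 0.116). Of 15 KLF, SP and EGR zinc finger factors, 6 were higher and 2 lower. KLF4, which acts in vessels and in myoblast fusion, was at 3.53, 7.75 and 11.8 CPM in L and 33.9, 44.6 and 60.1 CPM in DPL. EGR1, an early response factor, was at 7.01, 16.4 and 73.2 CPM in L and 88.7, 174 and 615 CPM in DPL. EGR3, which is needed for muscle spindles, was at 0.158, 0.535 and 0.869 CPM in L and 1.17, 1.74 and 3.87 CPM in DPL. None of these 3 genes overlapped between breeds, with changes of 2.58 ± 0.26, 3.12 ± 0.52 and 1.91 ± 0.39. SP2 and KLF16 were lower (-0.64 ± 0.14 and -0.55 ± 0.15) and SP1 was not called (0.17 ± 0.14). In the forkhead family 1 of 12 was higher, FOXO1, an activator of proteolysis that insulin keeps out of the nucleus (22.3, 33.8 and 45.4 CPM in L and 51.2, 90.4 and 136 CPM in DPL). FOXN2 and FOXP1 were lower (-0.51 ± 0.16 and -0.42 ± 0.16), and FOXO4, at a similar level in both breeds, had 0.12 ± 0.10. The call of FOXP1 was lost without L replicate 1, 7, 8 or 10 and without DPL replicate 7, 11, 16, 19 or 21, with adjusted p up to 0.138.

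Basic helix-loop-helix factors include the myogenic regulators and the MYC network, in which MXD proteins compete with MYC for their common partner MAX. Of 40 tested, 11 were higher and 8 lower. MYC was at 2.94, 6.33 and 8.38 CPM in L and 36.0, 47.4 and 142 CPM in DPL, a change of 3.36 ± 0.37 (adjusted p = 2.8e-08). The antagonists MXD3, MXD4 and MXI1 moved the other way. MXD3 was at 2.33, 3.03 and 5.02 CPM in L and 0.363, 1.16 and 1.43 CPM in DPL. MXD4 was at 5.00, 5.82 and 6.53 CPM in L and 2.13, 2.92 and 4.73 CPM in DPL. MXI1 was at 41.9, 67.1 and 88.2 CPM in L and 25.6, 35.5 and 52.3 CPM in DPL. MYC, MXD3 and MXD4 did not overlap between the breeds, whereas MXI1 did, and the changes of the antagonists were -1.67 ± 0.26, -0.94 ± 0.16 and -0.81 ± 0.16. MYF6, the myogenic factor of mature fibres, was higher (1.27 ± 0.22). SIM2, at a low level of 0.0714, 0.256 and 0.489 CPM in L and 0.413, 1.85 and 3.25 CPM in DPL, was higher too (2.75 ± 0.43), and MLXIP, a glucose-responsive factor, was not called (0.19 ± 0.17).

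In the leucine zipper family outside the immediate early genes, 7 of 24 were higher and 5 lower. NFIL3, a repressor of D-box clock targets, was at 1.203, 2.48 and 4.93 CPM in L and 15.8, 34.9 and 121 CPM in DPL. DBP, the activator that binds the same D-boxes, was at 5.80, 11.3 and 23.0 CPM in L and 1.59, 3.14 and 6.04 CPM in DPL. NFIL3 did not overlap between breeds and rose by 4.29 ± 0.52 (adjusted p = 1.17e-07), while DBP fell, with a change of -1.96 ± 0.29 (adjusted p = 3.01e-06) and a small overlap. NFE2L1, a factor that restores proteasome genes, was at 62.0, 74.2 and 89.3 CPM in L and 100.05, 170.3 and 221 CPM in DPL, with all DPL libraries above L (1.13 ± 0.13, adjusted p = 5.6e-08). NFE2L3 went the other way, at 9.53, 18.8 and 26.8 CPM in L and 1.22, 3.66 and 9.86 CPM in DPL (-2.09 ± 0.27), and NFE2L2, the master of antioxidant genes, was not called (0.16 ± 0.12). BACH1, which competes with NFE2L2 for its sites, was higher (1.02 ± 0.22), and CREBZF was lower in all 8 DPL libraries than in any of L (-0.74 ± 0.12). Of 35 ETS, IRF, STAT, NF-kappaB and NFAT factors, 9 were higher, such as REL (0.98 ± 0.17), the osmotic factor NFAT5 (0.71 ± 0.15) and the calcineurin target NFATC1 (0.81 ± 0.22), and 5 were lower, led by ELK3. By limma on log2(RPKM + 1) 5 of this list were higher and 8 lower. With a mean count of at least 100, 3 were lower. ELK3, an ETS repressor of vessels, was at 8.21, 10.2 and 12.7 CPM in L and 3.68, 4.13 and 4.80 CPM in DPL, without overlap (-1.30 ± 0.15, adjusted p = 8.01e-08). ELF2 and the endothelial and blood factor FLI1 were lower by smaller changes (-0.52 ± 0.11 and -0.82 ± 0.23), and NFATC3 was not called (-0.28 ± 0.14). Limma on log2(RPKM + 1) and on log2(RPKM + 0.1) called NFATC3 lower.

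MEF2 and SRF switch on fibre genes, and class II histone deacetylases hold MEF2 in check. Of 35 such factors and cofactors, 7 were higher and 8 lower. HDAC5 was at 32.1, 36.9 and 44.1 CPM in L and 47.0, 64.8 and 113 CPM in DPL. HDAC4, which fibres raise when they lose their nerve, was at 22.4, 35.3 and 63.0 CPM in L and 9.32, 17.0 and 25.2 CPM in DPL. HDAC5 did not overlap between breeds (0.88 ± 0.13, adjusted p = 1.99e-06), HDAC4 overlapped in part (-1.15 ± 0.20, adjusted p = 2.24e-05), and the 2 genes moved in opposite directions. MAMSTR, a coactivator of MEF2, was at 32.9, 46.0 and 48.3 CPM in L and 7.39, 11.5 and 15.5 CPM in DPL. Its change of -1.92 ± 0.17 (adjusted p = 1.72e-10) had no overlap. SMYD1, a muscle methyltransferase needed for the sarcomere, was at 28.7, 41.5 and 58.2 CPM in L and 8.88, 17.4 and 24.3 CPM in DPL, also without overlap (-1.29 ± 0.18, adjusted p = 1.3e-06). LMCD1, a LIM protein that promotes calcineurin signalling, rose by 1.71 ± 0.28, and PPRC1, a relative of PPARGC1A, by 0.95 ± 0.18. NCOR1, a corepressor of mitochondrial genes in muscle, was lower by a small amount (-0.36 ± 0.08). MEF2A had -0.11 ± 0.12 (adjusted p = 0.484).

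**Figure D2:**
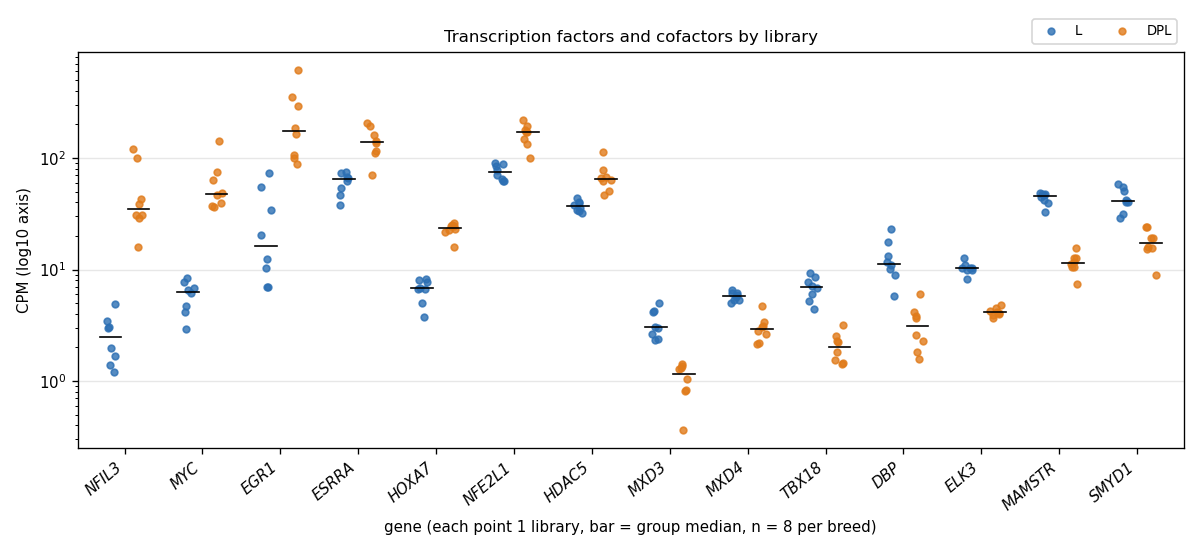
Level of 14 transcription factors and cofactors in each library, in CPM on a log10 axis, with L in blue and DPL in orange and a bar at each group's median. NFIL3 and MYC stand higher in all DPL libraries, while MXD3, MXD4, TBX18, ELK3, MAMSTR and SMYD1 stand lower in all of them.

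Insulin and IGF1 act through IRS proteins, PI3 kinase and AKT on glucose uptake and on mTOR. Of 42 genes tested, 10 were higher and 11 lower. At the top of the pathway, the ligand IGF1 was at 2.28, 5.03 and 7.68 CPM in L and 1.05, 2.06 and 4.00 CPM in DPL (-1.22 ± 0.24, adjusted p = 0.000159), and the adaptor IRS1 was lower (-0.88 ± 0.23), whereas the insulin receptor INSR was not called (0.32 ± 0.21, adjusted p = 0.23). The PI3 kinase regulatory subunits PIK3R1 and PIK3R2 were lower (-1.44 ± 0.42 and -0.91 ± 0.14), and so was the inhibitor PIK3IP1, at 10.3, 20.6 and 32.0 CPM in L and 2.18, 3.59 and 7.01 CPM in DPL (-2.44 ± 0.26). TBC1D4, which holds back the glucose carrier GLUT4 until AKT inactivates it, was at 29.1, 37.2 and 53.8 CPM in L and 8.51, 17.9 and 25.9 CPM in DPL. No DPL library reached L (-1.17 ± 0.20, adjusted p = 2.31e-05). Nearer to mTOR, RHEB, its direct activator, was at 80.6, 87.0 and 102 CPM in L and 149, 169 and 200.5 CPM in DPL. All 8 DPL libraries were higher, by 0.95 ± 0.09 (adjusted p = 7.02e-10). RICTOR, of mTOR complex 2, rose by 0.83 ± 0.16 and MTOR by 0.31 ± 0.10, a call that limma on log2(RPKM + 1) did not make (adjusted p = 0.38), while the mTOR inhibitors TSC2 and DDIT4L were lower (-0.35 ± 0.08 and -1.08 ± 0.21). GRB14 and PTPN1, brakes of the insulin receptor, were higher (1.35 ± 0.41 and 1.04 ± 0.21). PPP1R3C, which brings a phosphatase to glycogen, was at 12.5, 30.1 and 67.7 CPM in L and 92.7, 149.6 and 232 CPM in DPL, fully above L (2.03 ± 0.27, adjusted p = 5.18e-07). EIF4EBP1, a target of mTOR, was not called (-0.12 ± 0.22).

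AMP kinase senses falling energy, and its gamma subunit exists in 3 forms. The widespread PRKAG1 was at 25.6, 27.1 and 31.1 CPM in L and 40.7, 51.7 and 64.5 CPM in DPL. PRKAG2 was at 6.12, 8.29 and 12.4 CPM in L and 8.49, 21.3 and 50.4 CPM in DPL. PRKAG3, the form of fast glycolytic fibres, was at 26.5, 43.7 and 54.7 CPM in L and 14.6, 22.3 and 32.1 CPM in DPL. The first was higher in every DPL library than in L (0.91 ± 0.10, adjusted p = 1.65e-08), the second was higher with overlap (1.57 ± 0.33), and the third was lower with overlap (-0.99 ± 0.20). PRKAB2, the muscle beta subunit, was lower (-0.47 ± 0.15, adjusted p = 0.0145), CAB39, a scaffold of the upstream kinase, was higher (0.73 ± 0.14), and that kinase, STK11, was not called (0.21 ± 0.12). In all, 5 of 26 genes of energy sensing were higher and 3 lower, a share of 30.8% called against 38.0% of all genes. By limma on log2(RPKM + 1) 3 were higher and 8 lower, where all genes had 1277 higher and 3412 lower.

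Cyclic AMP carries adrenergic and prostaglandin signals, and phosphodiesterases end them. Of 50 genes, 12 were higher and 7 lower (38.0% called, against 38.0% of all genes). By limma on log2(RPKM + 1) 7 were higher and 11 lower. PDE8A, a phosphodiesterase of high affinity for cyclic AMP, was at 5.26, 7.14 and 8.95 CPM in L and 17.0, 24.2 and 32.5 CPM in DPL. The breeds were fully apart, with a change of 1.79 ± 0.15 (adjusted p = 6.23e-11). PDE7A and its paralogue PDE7B moved in opposite directions, at 1.08 ± 0.25 and -1.09 ± 0.21, and PDE7B did not overlap. The cyclase ADCY4 was higher (1.17 ± 0.23), the kinase subunit PRKACA was lower by a small amount (-0.36 ± 0.09), and the adrenergic receptor ADRA1D was lower, at 0.327, 0.624 and 1.34 CPM in L and 0, 0.176 and 0.379 CPM in DPL (-2.18 ± 0.44). RAMP1, a partner of the receptor for the vasodilator CGRP, had 0.03 ± 0.23.

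Calcium released from the reticulum contracts the fibre and switches calcineurin and calmodulin kinases. In this list the calls were mostly downward, with 6 of 65 higher and 19 lower (29.2% against 18.9% of all genes). RCAN1, the inhibitor that calcineurin itself induces, was at 15.5, 21.2 and 23.2 CPM in L and 94.4, 345 and 1312 CPM in DPL, a change of 4.27 ± 0.45, or 3.68 without DPL replicate 11. The catalytic subunit of calcineurin, PPP3CA, was at 33.97, 51.9 and 62.4 CPM in L and 17.5, 22.5 and 36.9 CPM in DPL (-1.08 ± 0.15, adjusted p = 6.56e-07). RCAN1 did not overlap between the breeds and PPP3CA overlapped in part. CALM3, 1 of 3 calmodulin genes, was lower without overlap (-0.91 ± 0.13), and the other two were not called. SYPL2, a protein of the triad membrane, was at 48.3, 75.6 and 92.7 CPM in L and 21.5, 36.7 and 43.5 CPM in DPL, again without overlap (-1.14 ± 0.15). S100A1, which promotes calcium release, and the phospholipase PLCB1 were higher (1.47 ± 0.33 and 1.32 ± 0.27). The buffer PVALB was lower (-2.72 ± 0.53), and SLN, the inhibitor of the calcium pump and the most abundant of the list that was not called, had 0.11 ± 0.16.

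MAP kinase cascades carry growth and stress signals, and dual specificity phosphatases stop them. Of 70 genes, 13 were higher and 13 lower (18.6% each). By limma on log2(RPKM + 1) 23 were lower, where lower calls over all genes were 3412 against 2418 by edgeR. The phosphatase DUSP1 was at 42.9, 96.8 and 166 CPM in L and 412, 449 and 678 CPM in DPL. GADD45B, a stress protein that acts on the p38 and JNK branches, was at 3.83, 7.49 and 12.7 CPM in L and 21.1, 37.3 and 79.5 CPM in DPL. Neither overlapped, with changes of 2.32 ± 0.30 and 2.44 ± 0.32. MAPK10, a JNK known mainly from nerve and heart, was at 0, 0.183 and 0.368 CPM in L and 1.32, 3.99 and 8.89 CPM in DPL. It was at 0 in 1 L library and in no DPL library. Its total was 41 reads over the 8 L libraries and 815 over the 8 of DPL (adjusted p = 1.23e-06). MAP2K6, the activator of p38, was lower (-2.25 ± 0.31), and RASA1, which switches RAS off, was lower in all 8 DPL libraries (-0.67 ± 0.08, adjusted p = 1.4e-07). MAP3K12, at a low level, was lower (-1.34 ± 0.29), and DUSP26 was not called (0.40 ± 0.23).

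Growth factor ligands and their receptor kinases are described together. Of 35 ligands, 6 were higher and 7 lower. CCN1, a matricellular ligand of integrins induced by stretch, was at 11.3, 18.4 and 34.3 CPM in L and 89.9, 135 and 183 CPM in DPL, without overlap (2.80 ± 0.29, adjusted p = 7.56e-09). EGF was at 14.1, 59.4 and 81.4 CPM in L and 8.90, 14.4 and 26.8 CPM in DPL. ANGPT2, a ligand that loosens vessels, was at 1.93, 3.40 and 4.42 CPM in L and 0.300, 0.989 and 1.65 CPM in DPL. Both were lower in DPL (-1.89 ± 0.24 and -1.80 ± 0.28), and only ANGPT2 had no overlap. Adrenomedullin (ADM) and the ephrin EFNA1 were higher (1.82 ± 0.43 and 0.73 ± 0.15), PDGFD was lower (-1.03 ± 0.28), and GRN was not called (-0.04 ± 0.13). Of 42 receptor kinases and partners, 4 were higher and 14 lower (33.3% lower, median -0.42). KIT, the receptor for stem cell factor, was at 5.03, 6.64 and 12.5 CPM in L and 0.251, 0.533 and 1.35 CPM in DPL. FGFR4, the main FGF receptor of myoblasts, was at 4.72, 8.40 and 11.9 CPM in L and 2.30, 2.94 and 4.17 CPM in DPL. Neither overlapped (-3.49 ± 0.33 and -1.44 ± 0.19). ERBB2 and ERBB3, which together bind neuregulin from the nerve, were both lower (-1.35 ± 0.23, adjusted p = 2.16e-05 and -1.43 ± 0.32, adjusted p = 0.000599), as was EGFR (-0.87 ± 0.24, adjusted p = 0.00443). EPHA2 was higher (1.117 ± 0.23) and EPHB2 lower (-1.73 ± 0.48). GFRA3, at a low level, was higher (1.65 ± 0.39), and the Wnt receptor RYK had -0.06 ± 0.10.

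Pathways that restrain or guide muscle growth during development are given next. In the TGF-beta, BMP and activin pathway 1 of 40 genes was higher and 12 were lower (30.0%). The higher calls were 3 without L replicate 2 or DPL replicate 23 or 30 and by DESeq2, and 2 without L replicate 9 or DPL replicate 7, 11, 19 or 26. Among ligands, MSTN (myostatin) was at 29.0, 39.7 and 46.1 CPM in L and 3.49, 10.1 and 13.6 CPM in DPL. BMP4 was at 8.25, 10.3 and 16.0 CPM in L and 3.54, 4.11 and 7.26 CPM in DPL. Neither overlapped (-2.003 ± 0.30 and -1.17 ± 0.18). BMP5 and TGFB2 were lower by smaller changes (-0.85 ± 0.22 and -0.63 ± 0.19). Of the receptors, ACVRL1, found mainly on endothelium, was at 6.50, 7.76 and 11.8 CPM in L and 2.06, 2.88 and 5.68 CPM in DPL, without overlap (-1.38 ± 0.19), and the myostatin receptor ACVR2B was not called (-0.36 ± 0.21, adjusted p = 0.185). The inhibitors FST (follistatin, -1.23 ± 0.31), SMAD6 (-1.15 ± 0.24) and CHRD (-0.62 ± 0.19) were lower as well. LRRC32, which anchors latent TGF-beta on cells, was the higher gene over all libraries (1.09 ± 0.29), and DCN, a proteoglycan that binds TGF-beta, was not called (-0.07 ± 0.17).

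Of 54 genes of Wnt, Notch and Hedgehog signalling, 2 were higher and 17 lower (31.5%). Without L replicate 2 the higher calls were 5, and with a mean count of at least 100 they were 0. By limma on log2(RPKM + 1) the lower calls were 26. The higher genes over all libraries were the Wnt agonists WNT11 (0, 0.0733 and 1.34 CPM in L and 0.805, 1.38 and 2.89 CPM in DPL, with a change of 2.24 ± 0.57, or 3.03 without L replicate 4) and RSPO3 (1.22 ± 0.33), both at low level. In the Hedgehog pathway the receptor PTCH1 (-0.83 ± 0.19), the transducer SMO (9.06, 11.9 and 16.9 CPM in L and 5.01, 5.79 and 6.31 CPM in DPL, -1.13 ± 0.14), the coreceptor CDON (-1.06 ± 0.20) and the effector GLI3 (3.28, 4.20 and 5.30 CPM in L and 0.732, 1.05 and 3.51 CPM in DPL, -1.66 ± 0.24) were all lower, with no overlap for SMO. GLI2 and the coreceptor BOC were not called (-0.29 ± 0.29 and -0.37 ± 0.25), though GLI2 was without DPL replicate 16 (adjusted p = 0.0456). In the Notch pathway the ligand DLL1 was at 2.86, 3.67 and 4.50 CPM in L and 1.05, 1.31 and 1.73 CPM in DPL, without overlap (-1.39 ± 0.19), and the pericyte receptor NOTCH3 was lower (-1.09 ± 0.18). Of the Wnt receptors FZD2 (-1.17 ± 0.29) and FZD4 (-0.70 ± 0.16) were lower, and so was the secreted inhibitor SFRP2 (-1.77 ± 0.43). DVL1 had -0.10 ± 0.15. Fibroblast and satellite cell marker sums were also lower in DPL (above), and their part in these changes was not tested.

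Downstream of receptors, RGS14, which shortens G protein signals, was at 1.69, 3.71 and 6.49 CPM in L and 0.454, 0.810 and 1.24 CPM in DPL, without overlap (-2.10 ± 0.27, adjusted p = 2.81e-07). RHOA, a switch of the actin skeleton, was higher by a small amount in all 8 DPL libraries (0.31 ± 0.07, adjusted p = 0.000993), as was RASSF1 (0.63 ± 0.14). ARHGEF26 and ARL10 were lower without overlap (-1.70 ± 0.30 and -1.03 ± 0.19), and CDC42 was not called (0.20 ± 0.09, adjusted p = 0.0635). Without DPL replicate 16, 21 or 30 CDC42 was called (adjusted p from 0.035 to 0.0455), as it was by DESeq2. Limma on log2(RPKM + 1) did not call RHOA (adjusted p = 0.269). Of 42 cytokine receptors and their feedback genes, 9 were higher and 6 lower (10 lower without DPL replicate 16). TNFRSF12A, the receptor for TWEAK that injured muscle raises, was at 5.22, 9.85 and 14.1 CPM in L and 16.5, 38.5 and 43.3 CPM in DPL, without overlap (1.84 ± 0.25, adjusted p = 5.58e-07). ACKR3, which scavenges CXCL12, was also higher without overlap (1.21 ± 0.21), and PIAS1 was higher (0.57 ± 0.11). TYK2, a JAK kinase of interferon receptors, was at 33.2, 42.5 and 49.3 CPM in L and 18.2, 21.7 and 27.6 CPM in DPL, fully below L (-0.93 ± 0.12, adjusted p = 3.58e-07). TNFRSF11B, the decoy receptor osteoprotegerin, was at 0.214, 4.28 and 5.86 CPM in L and 0.272, 0.415 and 0.825 CPM in DPL (-2.98 ± 0.42). L replicate 1 lay below all 8 DPL libraries for this gene and the other 7 above them. SOCS7 was lower (-0.65 ± 0.16), and the growth hormone receptor GHR was not called (-0.11 ± 0.14, adjusted p = 0.567).

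**Figure D3:**
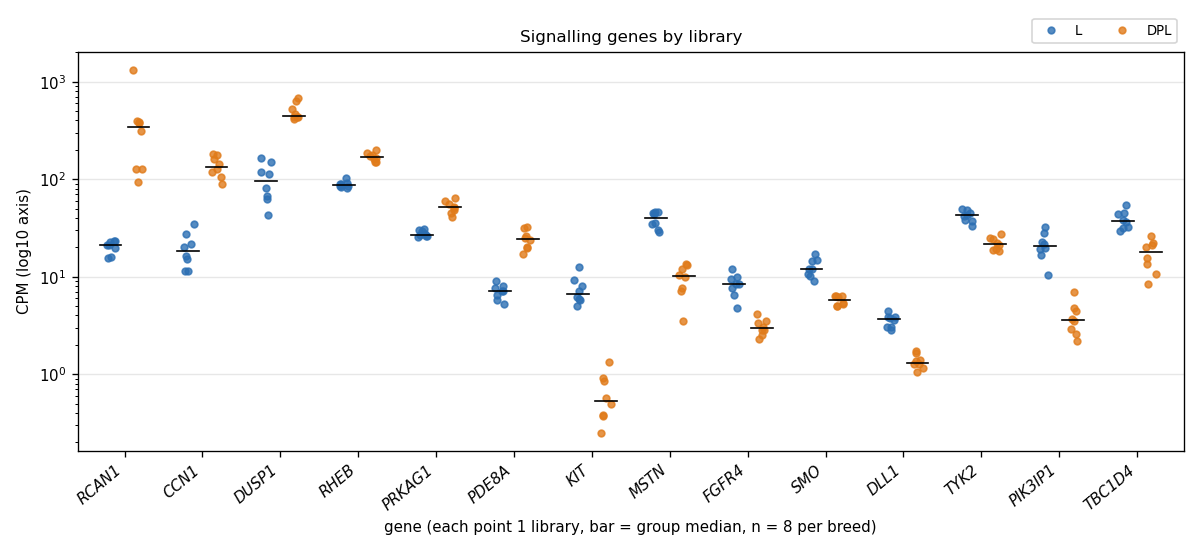
Level of 14 signalling genes in each library, in CPM on a log10 axis, with L in blue and DPL in orange and a bar at each group's median. RCAN1, CCN1, DUSP1, RHEB, PRKAG1 and PDE8A stand higher in all DPL libraries, and KIT, MSTN, FGFR4, SMO, DLL1, TYK2 and PIK3IP1 stand lower in all of them.

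Among carriers, the largest rise was that of SLC19A2, a thiamine carrier, at 6.28, 7.57 and 13.8 CPM in L and 50.2, 75.5 and 121 CPM in DPL. The 8 DPL libraries all lay above L, with a change of 3.29 ± 0.26 (adjusted p = 2.9e-11). Of 16 glucose and monocarboxylate carriers, 4 were higher and 2 lower. SLC16A10, a carrier of aromatic amino acids and thyroid hormone, was at 9.85, 11.7 and 15.0 CPM in L and 15.4, 31.9 and 58.1 CPM in DPL, without overlap (1.55 ± 0.19). The vitamin carrier SLC5A6 was higher by a smaller amount (0.61 ± 0.17), and so was SLC16A9 (1.15 ± 0.38). Limma on log2(RPKM + 1) called neither of them (adjusted p = 0.0992 and adjusted p = 0.0619), and SLC16A9 also lost its call without DPL replicate 19 (adjusted p = 0.0724). SLC2A12, a glucose carrier, and SLC16A12, a creatine carrier, were lower (-0.83 ± 0.21 and -1.62 ± 0.29). SLC16A3, which exports lactate from fast fibres, was not called (-0.33 ± 0.21, adjusted p = 0.219).

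Of 26 amino acid carriers, 6 were higher and 3 lower (34.6% called). SLC38A2, a carrier of small neutral amino acids that cells raise when starved of them, was at 4.99, 8.98 and 10.4 CPM in L and 17.9, 27.9 and 37.5 CPM in DPL, without overlap (1.68 ± 0.18, adjusted p = 1.03e-08). Its relative SLC38A4 was higher with overlap (6.74, 15.4 and 45.3 CPM in L and 18.1, 53.0 and 84.6 CPM in DPL, 1.45 ± 0.32), while SLC38A3, a glutamine carrier, was lower (-0.64 ± 0.23). The glutamate carrier SLC1A1 was near the limit of detection, with 14 reads over the L libraries and 116 over those of DPL (adjusted p = 0.00126). SLC6A4 and SLC7A10, also near that limit, were lower (-1.39 ± 0.36 and -1.21 ± 0.41), and SLC7A8 was not called (0.04 ± 0.31). The call of SLC38A3 was lost without L replicate 4 or DPL replicate 11 (adjusted p = 0.0572 and 0.0588), and that of SLC7A10 without L replicate 2 (adjusted p = 0.0636). For metals, 6 of 27 genes were higher and 4 lower. The magnesium carrier SLC41A1 was at 41.4, 51.2 and 65.2 CPM in L and 74.1, 86.4 and 117 CPM in DPL. CNNM3, of another family of magnesium handling, was at 18.5, 23.8 and 29.8 CPM in L and 9.81, 11.6 and 15.1 CPM in DPL. They moved in opposite directions and neither overlapped (0.86 ± 0.14 and -0.97 ± 0.12). STEAP4, a reductase of iron and copper known from fat and inflamed tissue, was lower without overlap (-2.47 ± 0.30). Zinc carriers were split, with SLC30A2 and SLC39A4 higher at low levels (2.65 ± 0.49 and 1.89 ± 0.50) and SLC39A13 lower (-0.49 ± 0.14), and the ferritin light chain FTL had -0.02 ± 0.16.

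Exchangers and pumps set sodium, potassium, chloride and acidity. Of 49 tested, 11 were higher (7 without L replicate 1) and 8 lower. SLC12A4, which lets potassium and chloride out of swollen cells, was at 5.19, 6.73 and 9.19 CPM in L and 12.1, 18.4 and 21.9 CPM in DPL, fully above L (1.36 ± 0.13, adjusted p = 2.4e-09). SLC4A10, a sodium-bicarbonate carrier known mainly from brain, was at 0.163, 0.366 and 0.620 CPM in L and 1.41, 2.45 and 5.06 CPM in DPL, also without overlap (2.80 ± 0.33), whereas its relative SLC4A4 was lower without overlap (-1.33 ± 0.19). Of the sodium pump's beta subunits, the muscle form ATP1B4 was at 274, 370.1 and 598 CPM in L and 87.5, 130.4 and 233 CPM in DPL. ATP1B2 was at 1.998, 3.06 and 5.25 CPM in L and 0.549, 0.973 and 1.55 CPM in DPL. Both lay fully below L (-1.45 ± 0.18 and -1.67 ± 0.25). ATP1B4 is known to have moved from the pump to the inner nuclear membrane in mammals. The carbonic anhydrase CA13 was lower (-1.48 ± 0.30) and CA14, which spread widely between pigs (36.5, 81.2 and 148 CPM in L and 2.74, 38.6 and 104 CPM in DPL), was not called. ATP6V1F, a subunit of the proton pump, was higher (0.88 ± 0.14).

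Of 95 lipid, organic and nucleoside carriers, 19 were higher (5 by limma on log2(RPKM + 1)) and 21 lower. SLC37A4, the carrier that brings glucose 6-phosphate into the reticulum, was at 51.7, 154 and 292 CPM in L and 29.1, 41.1 and 62.5 CPM in DPL, with little overlap (-1.94 ± 0.28, adjusted p = 1.5e-06). SLC44A2, a choline carrier, was at 99.8, 117 and 138 CPM in L and 44.2, 58.3 and 71.3 CPM in DPL, with none (-1.0005 ± 0.10, adjusted p = 3.41e-09). SLC35E4, an orphan carrier, was higher in all DPL libraries (1.68 ± 0.24). AQP11 was lower (-1.24 ± 0.21), and VLDLR, a lipoprotein receptor, had -0.06 ± 0.09. Mitochondrial carriers were the list of transporters with the largest share of higher calls, 15 of 42 (35.7% against 19.1% of all genes) and 2 lower. MPC2, a subunit of the pyruvate carrier, was at 80.9, 87.3 and 105 CPM in L and 164, 193 and 237 CPM in DPL, without overlap (1.15 ± 0.11, adjusted p = 2.04e-09). LETM1, a cation exchanger, and SLC25A25, a carrier of ATP and magnesium, rose by 0.87 ± 0.13 and 1.02 ± 0.17, and the ADP/ATP carrier SLC25A4 by 0.81 ± 0.14. SLC25A23 and SLC25A40 were lower (-0.61 ± 0.17 and -0.53 ± 0.17), and the outer membrane channel VDAC1 was not called (0.14 ± 0.11). The share of mitochondrially encoded reads was higher in DPL as well (above), and its part in the calls of these nuclear genes was not tested. With the mitochondrially encoded genes left out before scaling, 15 of the carriers were higher and 2 lower, and by limma on log2(RPKM + 1) 8 were higher.

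**Figure D4:**
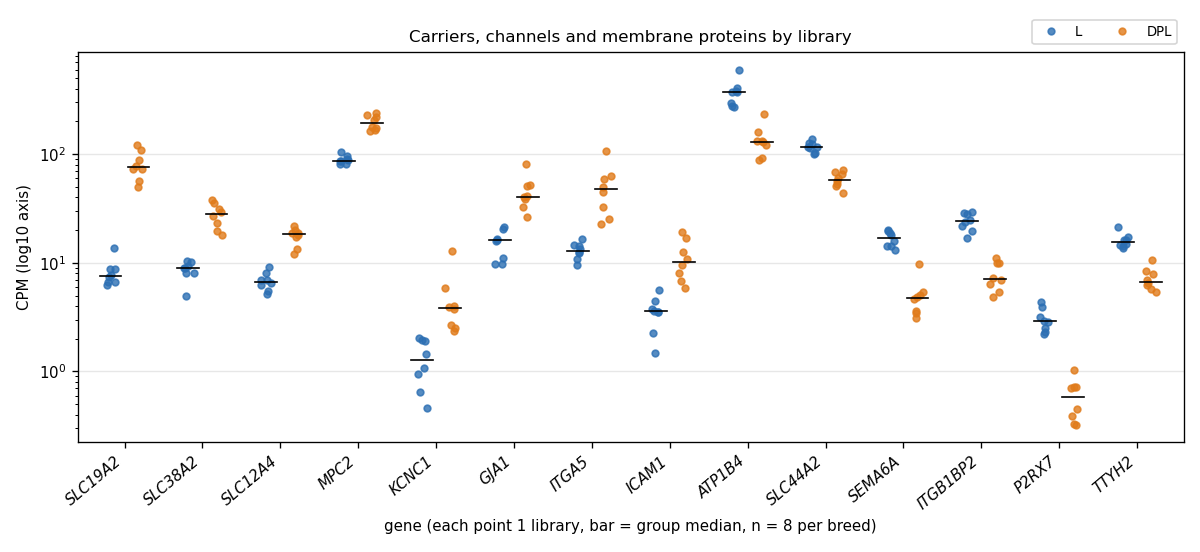
Level of 14 carriers, pumps, channels and membrane receptors in each library, in CPM on a log10 axis, with L in blue and DPL in orange and a bar at each group's median. SLC19A2, SLC38A2, SLC12A4, MPC2, ITGA5 and GJA1 stand higher in all DPL libraries, and ATP1B4, SLC44A2, SEMA6A, ITGB1BP2, P2RX7 and TTYH2 stand lower in all of them.

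Potassium channels repolarise the fibre. Of 21 tested, 3 were higher and 6 lower. KCNC1, a fast delayed rectifier, was at 0.465, 1.27 and 2.01 CPM in L and 2.34, 3.85 and 12.7 CPM in DPL, without overlap (1.86 ± 0.36, adjusted p = 0.000115). KCNT1, opened by sodium, was at 8.60, 18.2 and 21.6 CPM in L and 3.64, 4.52 and 8.78 CPM in DPL, and the overlap was slight (-1.71 ± 0.18, adjusted p = 1.52e-08). The accessory subunits KCNE3 and KCNIP3 were lower at low levels (-1.55 ± 0.31 and -1.99 ± 0.35), and KCNMA1 was higher (0.72 ± 0.24). KCNE1, with 20 reads over the L libraries and 86 over those of DPL, was called higher (2.35 ± 0.69, adjusted p = 0.00706; 1.65 without DPL replicate 23) but overlapped. KCNA7 had 0.14 ± 0.16. Of 48 other channels, 5 were higher, 19 were lower (39.6%) and 24 were not called. Of the parts of the calcium channel that senses voltage in the tubules, the pore CACNA1S (-0.53 ± 0.15), CACNA2D1 (158, 253 and 346 CPM in L and 75.4, 122 and 169.6 CPM in DPL, -1.04 ± 0.17), CACNB1 (-0.41 ± 0.10) and CACNG1 (-0.78 ± 0.17) were all lower. Fibre markers, which include CACNA1S, were lower in 8 and higher in 4 of 16 (above). Their part in the channel list, and in the junction and costamere lists below, was not tested. The sodium channel of muscle, SCN4A, was lower by a small amount (-0.35 ± 0.13, adjusted p = 0.0322). It lost its call without L replicate 1 or 4 or without DPL replicate 7, 11, 16 or 23 (adjusted p up to 0.0798). P2RX7, an ATP-gated channel known from macrophages, was at 2.21, 2.89 and 4.40 CPM in L and 0.325, 0.582 and 1.03 CPM in DPL. TTYH2, a membrane protein of the tweety family, was at 13.6, 15.5 and 21.6 CPM in L and 5.36, 6.69 and 10.6 CPM in DPL. Both lay fully below L (-2.37 ± 0.31 and -1.16 ± 0.16). GJA1, the gap junction protein connexin 43, went the other way, at 9.68, 16.1 and 21.4 CPM in L and 26.4, 40.7 and 82.0 CPM in DPL, without overlap (1.59 ± 0.22, adjusted p = 7.35e-07). P2RX5 and TRPM3 were higher (0.64 ± 0.16 and 1.68 ± 0.49). Limma on log2(RPKM + 0.1) called neither TRPM3 nor KCNMA1 (adjusted p = 0.0741 and adjusted p = 0.0561).

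At the neuromuscular junction acetylcholine receptors cluster under the nerve through MUSK. Of 26 genes, 3 were higher (5 without L replicate 2) and 10 lower. MUSK was at 0.813, 1.90 and 5.97 CPM in L and 1.46, 6.69 and 16.3 CPM in DPL. The receptor subunit CHRNA1 was at 0.409, 0.672 and 5.94 CPM in L and 0.108, 0.407 and 0.817 CPM in DPL. Both overlapped, and they moved in opposite directions (1.60 ± 0.42, adjusted p = 0.00298 and -1.66 ± 0.50, adjusted p = 0.0089). The call of CHRNA1 rested on L replicate 2, without which its change was -0.75 (adjusted p = 0.149). DOK5 and PRKAR1A were higher (0.79 ± 0.20 and 0.33 ± 0.11), CDH15, a cadherin of satellite cells, was lower without overlap (-0.99 ± 0.17), and LAMB2 of the synaptic matrix was not called (-0.13 ± 0.12). The dystrophin complex and costamere, which tie the fibre to the matrix, had 4 of 34 genes higher and 13 lower (38.2%). ITGB1BP2 (melusin), an integrin partner that senses stretch, was at 17.1, 24.3 and 29.6 CPM in L and 4.88, 7.05 and 11.1 CPM in DPL. POMT1, an enzyme that puts the first mannose on dystroglycan, was at 10.3, 11.1 and 12.03 CPM in L and 4.11, 5.65 and 6.90 CPM in DPL. Both lay fully below L (-1.65 ± 0.20 and -0.99 ± 0.11). The nitric oxide synthase NOS1 (1.08 ± 0.25) and vinculin, VCL (0.58 ± 0.15), were higher. Limma on log2(RPKM + 1) called neither PRKAR1A (adjusted p = 0.413) nor VCL (adjusted p = 0.0867). ANK2 was lower (-0.79 ± 0.14), and the protease CAPN3 missed the threshold (-0.24 ± 0.12, adjusted p = 0.124), which it passed without DPL replicate 30 (adjusted p = 0.0455). CAPN3 also passed it by limma on log2(RPKM + 1) and on log2(RPKM + 0.1) and with a mean count of at least 100.

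Integrins and syndecans bind cells to the matrix, and 7 of 46 such genes were higher and 12 lower. ITGA5, the fibronectin receptor, was at 9.52, 12.9 and 16.5 CPM in L and 22.9, 47.5 and 107 CPM in DPL. The tetraspanin CD63 was at 139, 188 and 210.4 CPM in L and 278, 307 and 417 CPM in DPL. All DPL libraries exceeded L for both (1.96 ± 0.25 and 0.91 ± 0.12). The hyaluronan receptor CD44 was higher (0.93 ± 0.24), TSPAN4, CD82 and the leukocyte integrin ITGAL were lower (-0.98 ± 0.18, -0.59 ± 0.13 and -1.24 ± 0.25), and ITGB1 was not called (-0.23 ± 0.11, adjusted p = 0.105). ITGB1 was called lower by limma on log2(RPKM + 1) and on log2(RPKM + 0.1) and with a mean count of at least 100. Cadherins, guidance cues and adhesion receptors had 32 of 77 lower (41.6% against 18.9% of all genes) and 6 higher, with a median of -0.55. SEMA6A, a guidance protein of nerve and vessel, was at 13.1, 16.9 and 20.1 CPM in L and 3.11, 4.71 and 9.75 CPM in DPL. PLXNA3, a receptor of semaphorins, was at 4.03, 4.89 and 5.64 CPM in L and 1.5001, 1.68 and 2.90 CPM in DPL, and the tight junction protein OCLN was at 1.79, 3.14 and 4.17 CPM in L and 0.844, 0.975 and 1.49 CPM in DPL. None of them overlapped, with changes of -1.75 ± 0.23, -1.31 ± 0.17 and -1.53 ± 0.20. Of 22 semaphorins and plexins, 11 were lower and 3 were higher, among them SEMA4C (0.91 ± 0.27). ICAM1, through which leukocytes attach, was the largest rise of the list, at 1.47, 3.59 and 5.58 CPM in L and 5.88, 10.3 and 19.2 CPM in DPL, without overlap (1.67 ± 0.24, adjusted p = 1.38e-06), and UNC5A was higher (0.56 ± 0.18). SEMA4D had -0.33 ± 0.18 and was called without L replicate 2 (adjusted p = 0.043). UNC5A lost its call by limma on log2(RPKM + 1) and on log2(RPKM + 0.1) (adjusted p up to 0.0607). It also lost it without L replicate 2 and DPL replicate 16 (adjusted p = 0.0568). With those libraries left out, 3 members were higher and 33 lower. Endothelial markers were lower in 3 of 8, and the part of vessels in this list was not tested.

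Receptors of the G protein coupled and related families were higher in 7 and lower in 16 of 60 tested. GPRC5A, an orphan receptor, was at 0.0395, 0.316 and 0.841 CPM in L and 1.46, 2.81 and 7.38 CPM in DPL, without overlap (3.005 ± 0.44, adjusted p = 2.64e-06). The bradykinin receptor BDKRB2 was higher (0.158, 0.439 and 0.940 CPM in L and 0.795, 2.25 and 3.10 CPM in DPL, 2.05 ± 0.39), as was DRD2 at a low level (1.19 ± 0.32). The endothelin receptor EDNRA was at 3.33, 4.61 and 6.32 CPM in L and 0.758, 1.37 and 2.36 CPM in DPL. The sphingosine phosphate receptor S1PR3 was at 0.426, 1.30 and 2.03 CPM in L and 0, 0.159 and 0.413 CPM in DPL. Both were fully below L (-1.64 ± 0.25 and -2.80 ± 0.45), and S1PR3 was at 0 in 1 DPL library. The latrophilin ADGRL2 was lower without overlap (-0.67 ± 0.12), and ADIPOR2, a receptor for adiponectin, was not called (0.29 ± 0.13, adjusted p = 0.0751) except without DPL replicate 11 (adjusted p = 0.0475).

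Of the secreted protein class, genes of clotting and matrix turnover are given first. The class as listed includes some membrane-bound proteins, such as F3 and PROCR. THBS1, a matrix protein that activates latent TGF-beta, was at 13.2, 18.5 and 40.02 CPM in L and 83.8, 155 and 532 CPM in DPL. F3, the tissue factor that starts clotting, was at 2.07, 3.81 and 5.96 CPM in L and 13.5, 26.6 and 35.4 CPM in DPL. Neither overlapped (3.57 ± 0.49, adjusted p = 8.42e-07 and 2.60 ± 0.32, adjusted p = 1.29e-07). Of 28 complement and coagulation genes, 6 were higher (10 without L replicate 2) and 4 lower. PROCR, which aids the activation of protein C, and APOD, a lipid carrier, were higher (1.002 ± 0.26 and 1.22 ± 0.33), and CFI, which cuts complement C3b, was lower (2.84, 4.42 and 7.37 CPM in L and 0.181, 0.771 and 2.94 CPM in DPL, -2.06 ± 0.36), as were MASP1 and APOA1 (-0.90 ± 0.24 and -1.27 ± 0.27). CFD had -0.12 ± 0.17.

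Of 72 matrix proteases and inhibitors, 10 were higher and 20 lower. ADAMTS4, which cuts aggrecan and versican, was at 0, 0.276 and 0.827 CPM in L and 4.35, 8.94 and 20.1 CPM in DPL. MMP25, a membrane-bound metalloprotease of leukocytes, was at 0.310, 0.394 and 0.757 CPM in L and 1.76, 11.0 and 48.6 CPM in DPL. Both were fully above L, with 71 and 101 reads over the 8 L libraries against 2138 and 2784 in DPL (adjusted p = 1.5e-06 and adjusted p = 4.88e-06). Several relatives of ADAMTS4 fell instead. ADAMTS8 was at 0.813, 32.6 and 103 CPM in L and 0.0708, 0.624 and 15.0 CPM in DPL, with a change of -3.97 ± 0.96, or -5.96 without DPL replicate 30, and ADAMTS15, ADAMTS16 and ADAMTS2, which trims procollagen, had -1.15 ± 0.19, -2.24 ± 0.35 and -1.44 ± 0.24. SERPINF1 was not called (-0.11 ± 0.12) except by limma on log2(RPKM + 1) and on log2(RPKM + 0.1). Collagens were lower in 14 of 21 genes (66.7%) and higher in 1, with a median of -0.75. COL3A1, a fibrillar collagen, was at 706, 1031 and 1401 CPM in L and 52.7, 218 and 419.7 CPM in DPL. COL15A1, of the zone around the basement membrane, was at 14.3, 17.9 and 24.3 CPM in L and 3.60, 5.35 and 7.80 CPM in DPL. COL21A1 was at 2.64, 3.66 and 4.38 CPM in L and 1.098, 1.35 and 1.55 CPM in DPL. None overlapped (-2.16 ± 0.30, -1.76 ± 0.18 and -1.42 ± 0.16). COL13A1, of the neuromuscular junction, was the higher one (0.155, 0.391 and 0.841 CPM in L and 0.649, 0.783 and 1.06 CPM in DPL, 0.84 ± 0.31, adjusted p = 0.0325). This call was lost without L replicate 4, 7, 8 or 10 or DPL replicate 7 (adjusted p up to 0.0671). Limma on log2(RPKM + 1) and on log2(RPKM + 0.1) did not make it either (adjusted p up to 0.154). COL6A2 was not called (-0.27 ± 0.21) except without DPL replicate 16 (adjusted p = 0.0237).

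Among proteoglycans and matricellular proteins 4 of 56 were higher and 19 lower (33.9%). NID2, a linker of basement membranes, was at 15.2, 22.1 and 28.7 CPM in L and 6.79, 9.23 and 14.1 CPM in DPL. Likewise PCOLCE was at 36.7, 48.3 and 58.8 CPM in L and 11.6, 22.0 and 28.8 CPM in DPL. NID2 and PCOLCE, which speeds the trimming of procollagen, lay fully below L (-1.22 ± 0.17 and -1.25 ± 0.19). The relative PCOLCE2 went the other way (0.66 ± 0.23), as did FBLN2 (0.55 ± 0.17). PCOLCE2 lost its call without DPL replicate 7 or 16 (adjusted p = 0.0517 and 0.0724). It also lost it by limma on log2(RPKM + 1) and on log2(RPKM + 0.1) (adjusted p up to 0.214). FBLN2 lost its call by limma on log2(RPKM + 1) (adjusted p = 0.165). The list had 2 higher without DPL replicate 16 and 1 by limma on log2(RPKM + 1). SPOCK2 was lower, with the breeds overlapping through L replicate 2 (2.30, 8.29 and 12.2 CPM in L and 0.844, 1.69 and 2.33 CPM in DPL, -2.28 ± 0.23), and IGFBP5, which binds IGF1, was lower without overlap (40.03, 49.8 and 94.4 CPM in L and 9.08, 18.7 and 22.6 CPM in DPL, -1.77 ± 0.28). These genes are known products of fibroblasts, whose markers summed lower in DPL (above), while the fibroblast proteoglycan DCN was at 321, 377 and 421 CPM in L and 222, 314 and 609 CPM in DPL and was not called. That marker sum includes DCN and the collagen COL3A1, so it is not separate from the matrix genes. The part of fibroblast number in these changes was not tested.

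Muscle also releases messengers, the myokines. Of 24 tested, 6 were higher and 6 lower. METRNL, released after exercise, was at 5.55, 6.40 and 10.7 CPM in L and 10.0, 17.7 and 30.0 CPM in DPL (1.36 ± 0.22, adjusted p = 1.32e-05), and SPARC, a collagen-binding protein, was lower (-1.02 ± 0.21). ENHO, which encodes the peptide adropin, was at 35.7, 55.1 and 73.5 CPM in L and 6.90, 10.3 and 24.0 CPM in DPL, fully below L (-2.09 ± 0.24, adjusted p = 6.68e-08). Of 17 chemokines, interleukins and other cytokines, 6 were higher and 5 lower. CCL2, which attracts monocytes, was at 1.32, 2.58 and 6.81 CPM in L and 5.63, 13.9 and 23.4 CPM in DPL (2.17 ± 0.43, adjusted p = 0.000187), and CLCF1, a cytokine of the IL6 family, was at 0.0817, 0.317 and 0.869 CPM in L and 1.13, 2.10 and 6.09 CPM in DPL, without overlap (2.65 ± 0.37). CXCL8, the neutrophil attractant, was at 0 in 6 of 8 L libraries, with 4 reads over the group, and had 128 reads over the 8 DPL libraries, none of them at 0 (adjusted p = 7.57e-06). CXCL14, TNFSF18 and CTF1 were lower (-1.39 ± 0.24, -1.68 ± 0.34 and -1.11 ± 0.26), and CCL5 missed the threshold (0.39 ± 0.16, adjusted p = 0.0538), which it passed without L replicate 1 or 2 or DPL replicate 7, 26 or 30 (adjusted p from 0.0173 to 0.0459). CCL5 also passed it by DESeq2, with RLE scaling and with the mitochondrially encoded genes left out. Macrophage markers beside these chemokines had a higher median sum in DPL with wide overlap and gained calls without L replicate 2 (above), and their part was not tested.

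**Figure D5:**
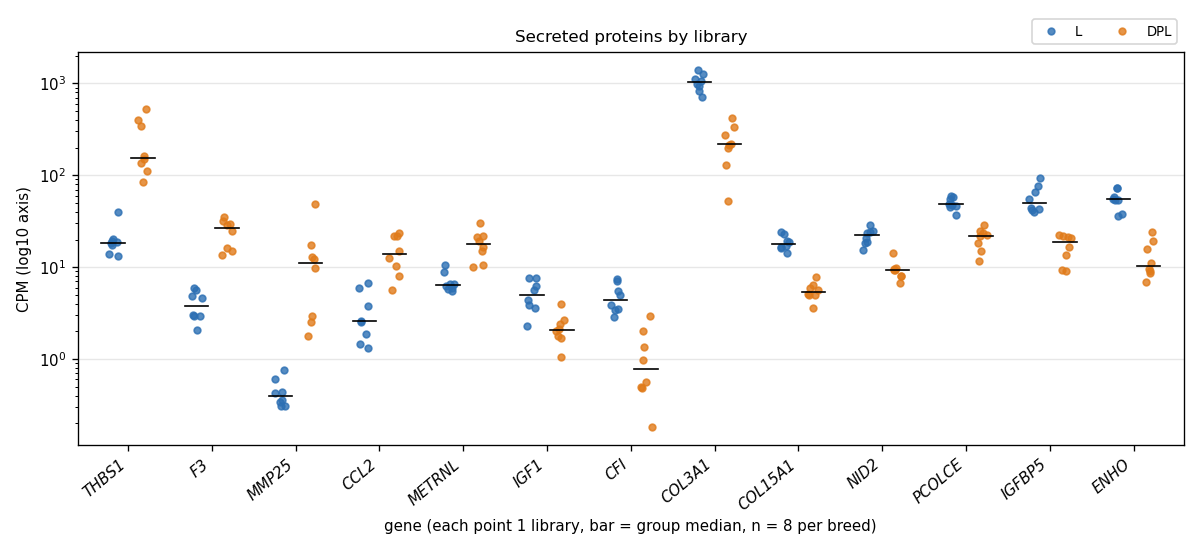
Level of 13 genes of the secreted protein class in each library, in CPM on a log10 axis, with L in blue and DPL in orange and a bar at each group's median. The class as listed includes F3 and MMP25, whose proteins are membrane-bound. THBS1, F3 and MMP25 stand higher in all DPL libraries, and COL3A1, COL15A1, NID2, PCOLCE, IGFBP5 and ENHO stand lower in all of them.

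Over all genes with a symbol, a level of at least 5 RPKM (reads per kilobase of gene and per 1e+06 reads) in the higher breed and no overlap, the largest rises outside the classes above included the early response factors ATF3, CSRNP1, MAFF and FOS. ATF3 was at 3.25, 8.32 and 13.4 CPM in L and 217, 387 and 1071 CPM in DPL. CSRNP1 was at 2.60, 3.59 and 5.45 CPM in L and 49.7, 79.1 and 141 CPM in DPL. MAFF and FOS had changes of 4.35 ± 0.31 and 4.24 ± 0.53. RETREG1, a receptor for autophagy of the reticulum, and the stretch-responsive ANKRD2 had 3.97 ± 0.25 and 3.75 ± 0.39. SRXN1, which repairs oxidised peroxiredoxins, was at 0.542, 1.498 and 5.38 CPM in L and 10.6, 20.0 and 64.9 CPM in DPL. SMPDL3A, a secreted phosphodiesterase that cuts nucleotides, was at 1.69, 3.78 and 9.70 CPM in L and 25.3, 55.8 and 109 CPM in DPL. The changes of the last pair were 3.74 ± 0.51 (adjusted p = 7.58e-07) and 3.73 ± 0.38 (adjusted p = 7.25e-09). The largest falls included KLHL33 (-2.41 ± 0.30) and KLHL23 (-1.69 ± 0.20), adaptors of ubiquitin ligases. RIPOR2, which takes part in myoblast fusion, was at 12.3, 20.6 and 32.8 CPM in L and 1.23, 4.44 and 9.41 CPM in DPL. PGM2L1, which makes glucose 1,6-bisphosphate, was at 45.0, 75.6 and 88.1 CPM in L and 9.48, 17.2 and 33.4 CPM in DPL. Neither overlapped (-2.01 ± 0.28, adjusted p = 9.93e-07 and -1.95 ± 0.24, adjusted p = 1.29e-07). CAPN6, a calpain without protease activity, was lower (-1.83 ± 0.30), with 1 high L library at 132 CPM.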

How the data were processed

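The deposited tables give, per gene and library, the count of uniquely mapped reads and an RPKM value (reads per kilobase, scaled to the header's read total), both made by the authors, per the file headers. Libraries were made from total RNA with a kit that does not mark strand, per the labels' protocols, so genes that overlap share reads. Bowtie 0.12.2 and Cufflinks are named in the submitters' processing notes, as is the mouse build mm8, none with a role. Which pig build and annotation served is not given in the sources used here. No coordinates are printed. Further deposited columns, gene length and the percent of it covered by reads, were not used in tests. Gene names came from an identifier table that matched 10836 of 17930 Ensembl identifiers, and identifiers without a symbol (14.5% of reads) entered the tests but no list.

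A gene missing from a library's table was set to 0. edgeR 4.0.16 (R 4.3.3) was used with TMM scaling, its filter on low counts (minimum count 10, minimum total 15), 1 model of 4 groups over 32 libraries and the quasi-likelihood test of DPL minus L. P-values were adjusted over 12821 genes by Benjamini-Hochberg. Called means an adjusted p under 0.05. RPKM values were used for limma 3.58.1 and for the level limits of the naming rule. Depth was 26590633 (L) and 26184718 (DPL) reads per library on average, which leaves genes under about 1 CPM with few reads. The fit was also run on counts simulated from its own estimates, with known changes in a small part of the genes. Such counts obey the model, so they check the code and not the model's assumptions. The labels speak of 32 pigs, and libraries of a breed differed beyond counting noise (smallest chi-square per degree of freedom 34.6), so each was taken as 1 replicate.

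Genes were assigned to 49 lists in 5 classes and a set of cell markers. The members and lists were chosen with earlier results of these data known, and 7 genes taken in by name pattern in error were removed after values were seen. Named genes are, per class, the 5 largest called rises and falls with at least 1 RPKM in the higher breed, examples of the 3 smallest adjusted p per list and direction, the most abundant uncalled member per list, and the 12 largest rises and falls over all genes at 5 RPKM or more without overlap. Pathway and family partners outside that rule (ACVR2B, BMP5, BOC, CACNA1S, CACNB1, CACNG1, CDON, CHRD, DDIT4L, EGFR, EPHB2, ERBB3, FST, FZD2, FZD4, GLI2, GRB14, HOXB6, HOXC6, HOXD1, INSR, IRS1, MTOR, PIK3R1, PTCH1, PTPN1, SCN4A, SFRP2, SLC25A4, SMAD6, TGFB2 and TSC2) were chosen after their values were seen. Some genes that the rule names, and 1 list, are not reported here. Alternatives were RLE scaling, DESeq2 1.42.0, limma on log2(RPKM + 1) and log2(RPKM + 0.1), no filter, a mean count of at least 100, only the 16 libraries, mitochondrially encoded genes left out, and each library left out. Leaving out L replicate 2 and DPL replicate 16 together was chosen after seeing the data.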

Additional observations from a re-analysis of the deposited data

Results flagged for a closer look

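For each gene with values in the report, the highest and the lowest of the 8 libraries of a breed were compared with the nearest other library on the log2(CPM + 0.1) scale. In 41 cases over 600 groups of 8, the gap, as a share of the group's range, passed Dixon's critical value for 8 values. Chance alone gives such a gap in about 1 in 20 groups. L replicate 2 held 15 of these cases. It was low for CACNA1S (531 CPM, nearest 766), CACNG1 (129.6 CPM, nearest 199), DVL1 (41.5 CPM, nearest 71.1), EGF (14.1 CPM, nearest 53.5), KCNT1 (8.60 CPM, nearest 15.9), MAP2K6 (5.04 CPM, nearest 11.5), NFE2L3 (9.53 CPM, nearest 16.6), OCLN (1.79 CPM, nearest 2.92), PRKAB2 (42.2 CPM, nearest 67.3), SLC37A4 (51.7 CPM, nearest 133.5) and SPOCK2 (2.30 CPM, nearest 6.96). The same library was high for CAPN6 (132 CPM, nearest 41.5), CHRNA1 (5.94 CPM, nearest 1.39), ERBB3 (4.65 CPM, nearest 1.499) and THBS1 (40.02 CPM, nearest 20.0). DPL replicate 23 held 7 of these cases. It was low for ACVR2B (1.68 CPM, nearest 4.03), ANK2 (17.5 CPM, nearest 29.4), HOXB6 (0 CPM, nearest 0.251), KCNIP3 (0 CPM, nearest 0.209) and SMYD1 (8.88 CPM, nearest 15.4). The same library was high for CALM3 (451 CPM, nearest 365) and ERBB2 (32.9 CPM, nearest 17.3). DPL replicate 11 was low for CACNB1 (133 CPM, nearest 163), SLC25A25 (118 CPM, nearest 189.7) and SPOCK2 (0.844 CPM, nearest 1.46). DPL replicate 21 was low for MXD3 (0.363 CPM, nearest 0.814), and high for GRN (125 CPM, nearest 88.8) and SEMA6A (9.75 CPM, nearest 5.36). L replicate 1 was low for TNFRSF11B (0.214 CPM, nearest 2.41), and high for CHRD (5.53 CPM, nearest 4.04). L replicate 8 was low for S1PR3 (0.426 CPM, nearest 1.22) and SLC38A2 (4.99 CPM, nearest 8.09). L replicate 10 was high for PRKAR1A (105 CPM, nearest 75.7) and RETREG1 (54.6 CPM, nearest 35.6). DPL replicate 19 was low for CAPN6 (4.69 CPM, nearest 11.2) and SOX11 (0.0750 CPM, nearest 0.256). L replicate 5 was low for RASSF1 (4.17 CPM, nearest 6.20). L replicate 7 was low for DRD2 (0.180 CPM, nearest 0.735). L replicate 9 was high for SLC19A2 (13.8 CPM, nearest 8.87). DPL replicate 7 was low for HOXA7 (15.9 CPM, nearest 21.8). DPL replicate 16 was high for GLI3 (3.51 CPM, nearest 1.46). The 8 libraries of L also held the lowest summed level of fibre markers in replicate 2, given in the report, and its part in these values was not tested.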

How the results depend on the processing

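Higher genes numbered 2455 by edgeR, 1277 by limma on log2(RPKM + 1) and 1305 by limma on log2(RPKM + 0.1). The corresponding counts of lower genes were 3412 and 3426, against 2418. Leaving out 1 library at a time gave 2278 to 2488 higher and 2222 to 2489 lower genes, and a difference in mitochondrial read share of 9.62 to 11.8 percentage points around 10.5. The smallest exact permutation p in these was 0.000622 and the largest 0.00218. With L replicate 2 and DPL replicate 16 both left out, 2369 were higher and 2429 lower. The other alternatives gave between 1815 and 2642 higher and between 1724 and 2455 lower genes. Of 7424 refitted values of the 300 genes with values in the text, 0 changed direction with a call, 58 lost and 28 gained a call. Of 2450 refitted counts of list members, 141 differed by over 1.5 times, 33 and 28 of them by limma and 24 with the stricter filter, which tests fewer genes. No paired analysis was possible because L and DPL share only replicate number 7. The sign of a list's median depended on the setting for the forkhead, insulin, cyclic AMP, amino acid, metal and potassium channel lists, among others, so no direction is given for those lists. Depth limits genes under about 1 CPM, where a library holds few reads.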
